A study of Mus musculus with 10 samples.

Results

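Mitochondrial complex I, the NADH dehydrogenase of the respiratory chain, was examined through its nuclear genes in kidneys of aged mice. All genes whose symbol begins with Nduf were taken, which gave 47 of the 13299 genes in the deposited table, and 46 of them are described. They comprised 36 subunits of the complex, 8 assembly factors (Ndufaf genes), Ndufa4, now assigned to complex IV, and its paralog Ndufa4l2. All 46 passed the filter on low values and entered the fit across 13236 genes. Whole kidneys of 5 mice with a knocked-in S74N allele of Rragc on 1 chromosome (Rragc S74N/+) were compared with kidneys of 5 wild-type mice (Rragc +/+). All were aged 1.5 years and, according to the methods of the study, of C57BL/6 background. Rragc encodes RagC, a GTPase through which nutrients activate the growth kinase mTORC1, and S74N is an activating substitution present in every cell type of the animal. The labels gave neither sex nor replicate numbers and did not state that the samples of a group came from separate animals. The study itself reports kidneys of 5 mice per genotype for this comparison. The p-values measure the spread between these samples. Replicates were numbered 1 to 5 by order of deposit.

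Complex I takes electrons from NADH, hands them to ubiquinone and pumps protons across the inner mitochondrial membrane. It is built from modules that are assembled separately. The N module binds NADH at the tip of the matrix arm, the Q module reduces ubiquinone, and the proximal and distal parts of the membrane arm pump protons. The core of the membrane arm is encoded by mitochondrial DNA (the mt-Nd genes), while the core of the matrix arm and every accessory subunit are encoded in the nucleus. Assembly factors help to build the complex and do not remain in it. The kidney is rich in mitochondria, because tubule cells that reabsorb salt and solutes rely on oxidative phosphorylation.

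Expression was measured by 3′ mRNA sequencing, in which 1 fragment near the 3′ end stands for a transcript, so normalized counts of different genes can be set side by side without a length correction. Reads recovered from the normalized counts of the 13299 genes numbered 4488493 to 5797251 per library. Transcripts of the mitochondrial genome took 33.8% to 38.0% of the counts. In the fit, limma on log2(normalized count + 1), 341 genes were lower and 457 higher in Rragc S74N/+ kidneys at an adjusted p under 0.05. With libraries scaled to equal totals these counts were 225 and 718. Proximal tubule markers, the defining genes of the most abundant kidney cell, summed to 48642 to 64316 normalized counts in each library. All 4 tested Y-linked genes were detected in every library (at least 26.9 normalized counts) and none of them differed. Counts from whole tissue cannot tell fewer cells of a type from less RNA per cell.

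The library of Rragc S74N/+ replicate 1 stood apart. Deviations were taken from the mean of the other libraries of the same group. Among genes with a mean of at least 50 normalized counts, their SD was 0.637 on the log2 scale in this library, against 0.273 to 0.350 in the other 9 libraries. Its quality weight estimated by limma was 0.327, and the other weights lay between 0.948 and 1.33. Its 4930328 recovered reads were within the range of the others. It was the lowest of the 10 libraries for 24 of the 36 subunits, against 24% of all tested genes. Rragc +/+ replicate 2 was the highest of the 10 for 19 of the 36, against 15.6% of all tested genes. The results are therefore given with and without Rragc S74N/+ replicate 1. Without Rragc +/+ replicate 2 the median log2 fold change of the subunits was -0.31, and without both libraries it was -0.27. Fewer subunits passed in either of these fits, as given below.

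Promoter sequences are shown for the subunit with the largest fall (Ndufa8), that with the lowest p (Ndufb2), and Ndufb5, which fell and has none of the motifs in its window. Each is the 250 bases before the start of the gene in RefSeq on GRCm38.p6, written 5′ to 3′ on the strand of the gene. Ndufa8 is at chr2:36049339-36049588 (minus strand), Ndufb2 at chr6:39592315-39592564 (plus strand) and Ndufb5 at chr3:32736813-32737062 (plus strand). Capitals mark matches, on either strand, to the core of the NRF1 site (CGCATGCG), the ERR half-site (AAGGTCA), GABP (CCGGAAG), Sp1 (GGGCGG) or NF-Y (CCAAT), motifs of factors known to act at promoters of respiratory chain genes or at promoters in general.
Ndufa8: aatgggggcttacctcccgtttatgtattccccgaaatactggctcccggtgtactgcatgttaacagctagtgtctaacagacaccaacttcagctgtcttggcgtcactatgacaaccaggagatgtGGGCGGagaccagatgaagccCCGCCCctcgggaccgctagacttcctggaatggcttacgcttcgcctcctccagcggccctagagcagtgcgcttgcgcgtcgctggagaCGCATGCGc
Ndufb2: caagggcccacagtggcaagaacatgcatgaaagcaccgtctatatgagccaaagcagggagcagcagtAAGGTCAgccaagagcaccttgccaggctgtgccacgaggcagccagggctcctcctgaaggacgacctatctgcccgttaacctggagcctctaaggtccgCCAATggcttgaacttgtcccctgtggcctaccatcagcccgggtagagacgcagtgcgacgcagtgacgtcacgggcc
Ndufb5: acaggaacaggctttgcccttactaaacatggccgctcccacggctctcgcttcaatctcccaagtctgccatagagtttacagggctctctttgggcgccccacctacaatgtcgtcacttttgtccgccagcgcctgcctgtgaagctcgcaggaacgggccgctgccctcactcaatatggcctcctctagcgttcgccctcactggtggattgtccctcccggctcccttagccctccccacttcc
Positions were counted back from the base before the start. The Ndufa8 promoter held an NRF1 match at -9 to -2 and Sp1 matches at -100 to -95 and -121 to -116. The Ndufb2 promoter held an ERR half-site at -181 to -175 and CCAAT at -79 to -75. None of the 5 motifs was found in the window of Ndufb5.

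Promoters were matched by symbol for 41 of the 46 members, and not for Ndufs1, Ndufa2, Ndufb9, Ndufa4l2 and Ndufaf6. An NRF1 match was present in 3 of the 41 (Ndufa8, Ndufa11 and Ndufaf4), against 1.75% of 27025 promoters of the same length. The ERR half-site was present in 3 (Ndufb2, Ndufb4 and Ndufs5) against 4.7%, and CCGGAAG in 5 against 7.83%. GGGCGG was found in 19 against 35.4%, and CCAAT in 14 against 37.5%. Of the 7 members that passed the test, 6 had a promoter, and 1 of these held an NRF1 match, 1 an ERR half-site, 1 GGGCGG and 2 CCAAT. These matches describe letters only.

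Several subunits fell in Rragc S74N/+ kidneys, and none rose. Past the threshold, 6 of the 36 subunits were lower (16.7%), against 2.58% of all tested genes, and 0 were higher, against 3.45%. They were Ndufb2, Ndufb5, Ndufb9 and Ndufb10 of the distal arm and Ndufa8 and Ndufc2 of the proximal arm. Ndufa4 passed as well, and 0 of the 8 assembly factors did. The median log2 fold change was -0.36 over the subunits and -0.15 over the assembly factors, against -0.01 over all tested genes, and 33 of the 36 subunits lay below 0, against 51.3% of all genes. By module the median was -0.18 (N), -0.32 (Q), -0.26 (proximal arm) and -0.56 (distal arm), and differences between modules were not tested.

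**Figure D1:**
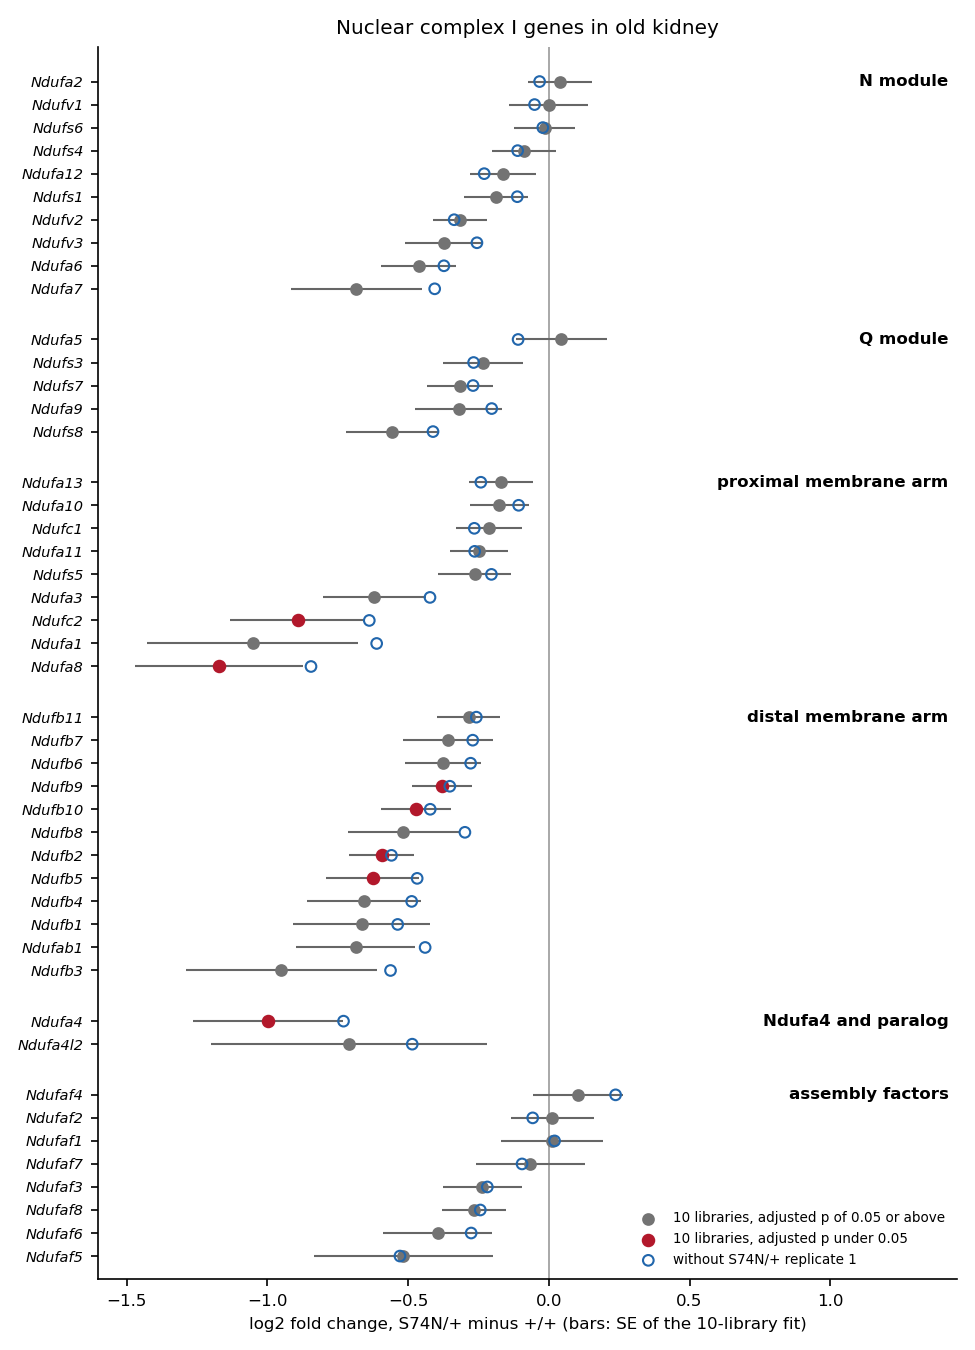
Log2 fold change (S74N/+ minus +/+, x axis) of the 46 genes, grouped by module. Filled points and bars give the fit on 10 libraries with its SE (red: adjusted p under 0.05), and open points the value without Rragc S74N/+ replicate 1. All 12 distal arm subunits lie below 0, from -0.29 to -0.95, while the N module reaches from -0.68 to 0.04.

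At an unadjusted p under 0.05 in limma, 23 of the 36 subunits were lower, against 12.8% of all tested genes, and 0 were higher, against 12.6%. The groups did not overlap, with all 5 Rragc S74N/+ values below all 5 Rragc +/+ values, for 10 subunits (Ndufv2, Ndufa6, Ndufs7, Ndufa3, Ndufa8, Ndufa10, Ndufb2, Ndufb5, Ndufb9 and Ndufab1), against 4.01% of all genes. Without Rragc S74N/+ replicate 1 the median over the subunits was -0.27, all 36 lay below 0 and 10 passed (27.8%), against 3.2% of all genes. The same 10 subunits were then free of overlap, against 4.83% of all genes. Leaving out a library cannot undo freedom from overlap, so these 10 could not have been lost. The 10 past the threshold were the 6 above and Ndufv2, Ndufa3, Ndufa7 and Ndufab1. With libraries weighted by quality 10 passed, against 3.18% of all genes, and the median was -0.30.

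The number past the threshold depended on the test and on single libraries. The quasi-likelihood test of edgeR on recovered reads called 5 of the 36 subunits lower (2.5% of all genes), and DESeq2 called 12 (4.29% of all genes). Only Ndufb2 was left without Rragc +/+ replicate 1 (1.05% of all genes), replicate 2 (0.944%) or replicate 4 (1.11%), or without Rragc S74N/+ replicate 5 (1.28%). Without Rragc +/+ replicate 3 (1.8%) or Rragc S74N/+ replicate 4 (1.78%) there were 3. Without Rragc S74N/+ replicate 2 (2.15%) there were 5, and without Rragc +/+ replicate 5 (2.44%) or Rragc S74N/+ replicate 3 (3.01%) there were 7. Of the 10 fits that left out a library, Ndufa8 and Ndufb5 passed in 5, Ndufc2 in 4, Ndufb9 in 3 and Ndufb10 in 2. Ndufa4 passed in 4. The largest adjusted p of these genes over the 10 fits (limma) lay between 0.0969 and 0.118. For Ndufa8, Ndufb5, Ndufc2 and Ndufa4 the fit without Rragc S74N/+ replicate 1 gave the lowest. The median over the subunits stayed between -0.41 and -0.27 when each library was left out in turn.

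**Figure D2:**
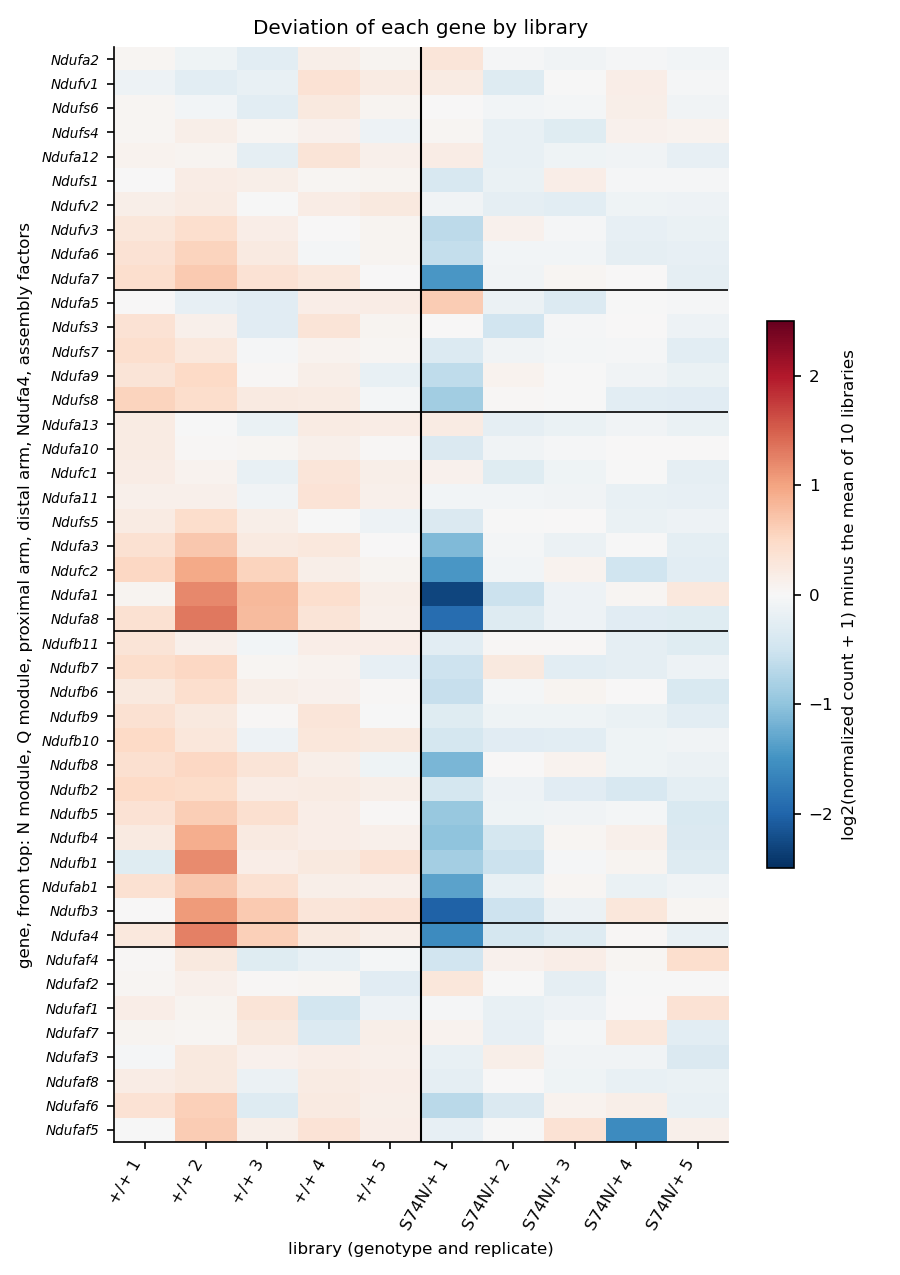
Deviation of log2(normalized count + 1) from the mean of the 10 libraries (colour scale) for 45 genes (rows, by module; Ndufa4l2 is not drawn) in each library (columns, +/+ to the left of the line). Rragc S74N/+ replicate 1 holds the darkest blue cells and Rragc +/+ replicate 2 the darkest red cells, and replicate 1 also has red cells in Ndufa5 and Ndufa2.

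In the N module, 0 of 10 subunits passed the threshold in limma, against 2.58% of all tested genes. At an unadjusted p under 0.05 in limma 4 were lower (40%), against 12.8% of all tested genes. The median log2 fold change was -0.18 (-0.17 without Rragc S74N/+ replicate 1). DESeq2 called 2 of the module's genes lower, Ndufv2 and Ndufa6, against 4.29% of all genes, and edgeR 0, against 2.5%. Ndufv1, which carries the flavin that accepts electrons from NADH, had the highest mean level of all 46 genes. Its normalized counts were 2070, 1864, 1980, 2902 and 2612 in Rragc +/+ replicates 1 to 5 and 2592, 1799, 2224, 2534 and 2204 in Rragc S74N/+ replicates 1 to 5. The groups overlapped over nearly their whole range, and the log2 fold change was 0.00 ± 0.14 (SE; -0.05 ± 0.13 without replicate 1).

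Ndufv2, the iron-sulfur partner of Ndufv1, went from 1023 ± 68.7 normalized counts in Rragc +/+ kidneys to 821 ± 43.9 in Rragc S74N/+ kidneys (mean ± SD, n = 5 each). Its groups did not overlap, and its log2 fold change of -0.32 ± 0.10 (SE) missed the threshold (limma, adjusted p = 0.0624). Without Rragc S74N/+ replicate 1 it passed, at -0.34 and an adjusted p of 0.0400 (limma). Ndufs1, the iron-sulfur subunit that carries electrons on towards the Q module, stood at 540.3 ± 27.5 against 477 ± 66.6 (mean ± SD, n = 5 each), and its difference of -0.19 ± 0.11 (SE) on the log2 scale did not pass (limma, adjusted p = 0.320; -0.11 without replicate 1, adjusted p = 0.560). Ndufa7 had the module's largest difference, -0.68, and missed the threshold (limma, adjusted p = 0.0857), while without replicate 1 it passed at -0.41 (limma, adjusted p = 0.0492). Ndufa6, an accessory subunit of the LYR family, had 1143, 1318, 1041, 863 and 933 normalized counts in Rragc +/+ and 592, 852, 848, 767 and 773 in Rragc S74N/+ libraries. Its groups did not overlap, and its difference of -0.46 ± 0.13 (SE) on the log2 scale missed the threshold (limma, adjusted p = 0.0526, and 0.0574 without replicate 1).

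In the Q module, none of the 5 subunits described passed the threshold in limma. At an unadjusted p under 0.05 in limma 2 (Ndufs7 and Ndufs8) were lower (40%), against 12.8% of all tested genes. The median log2 fold change was -0.32 (-0.27 without replicate 1). DESeq2 called Ndufs8 lower, against 4.29% of all genes, and edgeR called 0, against 2.5%. Ndufs7, which holds the last iron-sulfur cluster before ubiquinone, had 563 ± 72.5 against 451 ± 43.5 normalized counts (SD, n = 5 per group), with groups that did not overlap and a change of -0.32 ± 0.12 (log2, SE; limma, adjusted p = 0.110). Ndufs8, another iron-sulfur subunit, had 560.4 ± 88.9 against 385 ± 85.6 (SD, n = 5 per group), at -0.56 ± 0.16 (SE; limma, adjusted p = 0.0538). Ndufs3 had 384 ± 65.5 against 325 ± 42.8 (SD, n = 5 per group), at -0.24 ± 0.14 (SE; limma, adjusted p = 0.314). Over the 6 core subunits described from both modules the median was -0.28, and 0 passed in limma.

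Ndufa5, an accessory subunit of the Q module, had the largest positive log2 fold change among the subunits. Its normalized counts were 835, 717, 679, 934 and 942 in Rragc +/+ and 1286, 747, 649.9, 819.9 and 814 in Rragc S74N/+ libraries. Only Rragc S74N/+ replicate 1 lay above the Rragc +/+ range. Over all libraries the difference was 0.04 ± 0.16 (log2, SE; limma, adjusted p = 0.894), and -0.11 ± 0.12 without that library.

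In the proximal membrane arm, 2 of 9 subunits passed, against 2.58% of all tested genes, and all 9 lay below 0, against 51.3%. The median log2 fold change was -0.26 with and without replicate 1. Ndufa8, an accessory subunit on the intermembrane side whose promoter is printed above, showed the largest fall. It had 207, 401, 275, 200.0 and 173 normalized counts in Rragc +/+ and 42.0, 127, 146, 130.4 and 129 in Rragc S74N/+ libraries. The groups did not overlap, and Rragc S74N/+ replicate 1 was far below the other 4, which lay close together. Its log2 fold change was -1.17 ± 0.30 (SE; limma, adjusted p = 0.0313). Without replicate 1 it was -0.84 ± 0.18 (limma, adjusted p = 0.00892), and the mean of the remaining Rragc S74N/+ libraries was 53.0% of the Rragc +/+ mean.

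Ndufc2, an accessory subunit next to the mitochondrially encoded core, had 779.8, 1056, 798, 603 and 570.1 normalized counts in Rragc +/+ and 197, 518, 577, 383 and 453 in Rragc S74N/+ libraries. The groups touched, since Rragc S74N/+ replicate 3 lay just above Rragc +/+ replicate 5. On the log2 scale it differed by -0.89 ± 0.24 (SE; limma, adjusted p = 0.0396), and -0.64 (limma, adjusted p = 0.0171) without replicate 1. Ndufa1 had a larger difference than Ndufc2, -1.05 ± 0.37 (SE), but missed the threshold (limma, adjusted p = 0.0996), with 35.4 normalized counts in Rragc S74N/+ replicate 1 and 122 to 214 in the other 4 Rragc S74N/+ libraries. Without replicate 1 it stood at -0.61 (limma, adjusted p = 0.0706) and was no longer the larger of the pair. The remaining 6 subunits lay between -0.62 (Ndufa3) and -0.17 (Ndufa13).

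In the distal membrane arm, 4 of 12 subunits passed, against 2.58% of all tested genes. At an unadjusted p under 0.05 in limma all 12 were lower (11 without replicate 1), against 12.8% of all tested genes with 10 libraries. The median log2 fold change was -0.56 (-0.43 without replicate 1). Ndufb2, an accessory subunit of this arm with an ERR half-site in the promoter printed above, had 602, 582, 481, 493 and 469 normalized counts in Rragc +/+ and 314, 392, 347, 322 and 360.4 in Rragc S74N/+ libraries. Every Rragc S74N/+ library lay below every Rragc +/+ library, and replicate 1 was not far from the others. Ndufb2 changed by -0.59 ± 0.11 (log2, SE), with the lowest p of the 46 genes (limma, adjusted p = 0.00863), and -0.56 (limma, adjusted p = 0.00545) without replicate 1. It was the only member called in all 10 fits that left out a library.

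Ndufb5, another accessory subunit of the arm, had 719, 862, 744, 629 and 576 normalized counts in Rragc +/+ and 292, 524, 529, 543 and 433 in Rragc S74N/+ libraries. The groups did not overlap, and replicate 1 was again the lowest. The log2 fold change was -0.63 ± 0.17 (SE; limma, adjusted p = 0.0364), and -0.47 (limma, adjusted p = 0.0240) without it.

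Ndufb9, another member of the LYR family of small proteins that bind the mitochondrial acyl carrier protein, had the highest level of the distal arm. It had 2406, 2188, 1903, 2295 and 1848 normalized counts in Rragc +/+ and 1509, 1712, 1712, 1660.1 and 1555 in Rragc S74N/+ libraries. The groups did not overlap, and no library was far from the others of its group. The log2 fold change was -0.38 ± 0.11 (SE; limma, adjusted p = 0.0441), -0.35 (limma, adjusted p = 0.0403) without replicate 1, and the edgeR quasi-likelihood test gave an adjusted p of 0.0530.

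Ndufb10, an accessory subunit on the intermembrane side, had 665, 573, 431, 567 and 552 normalized counts in Rragc +/+ and 345, 385, 391, 437 and 439 in Rragc S74N/+ libraries. The groups overlapped through Rragc +/+ replicate 3, which lay below 2 Rragc S74N/+ libraries. The log2 fold change was -0.47 ± 0.13 (SE; limma, adjusted p = 0.0364), and -0.42 (limma, adjusted p = 0.0392) without replicate 1. Ndufab1, the acyl carrier protein itself, did not overlap between groups and missed the threshold (limma, adjusted p = 0.0641), at -0.69 with replicate 1. Without replicate 1 it passed, at -0.44 and an adjusted p of 0.0293 (limma).

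**Figure D3:**
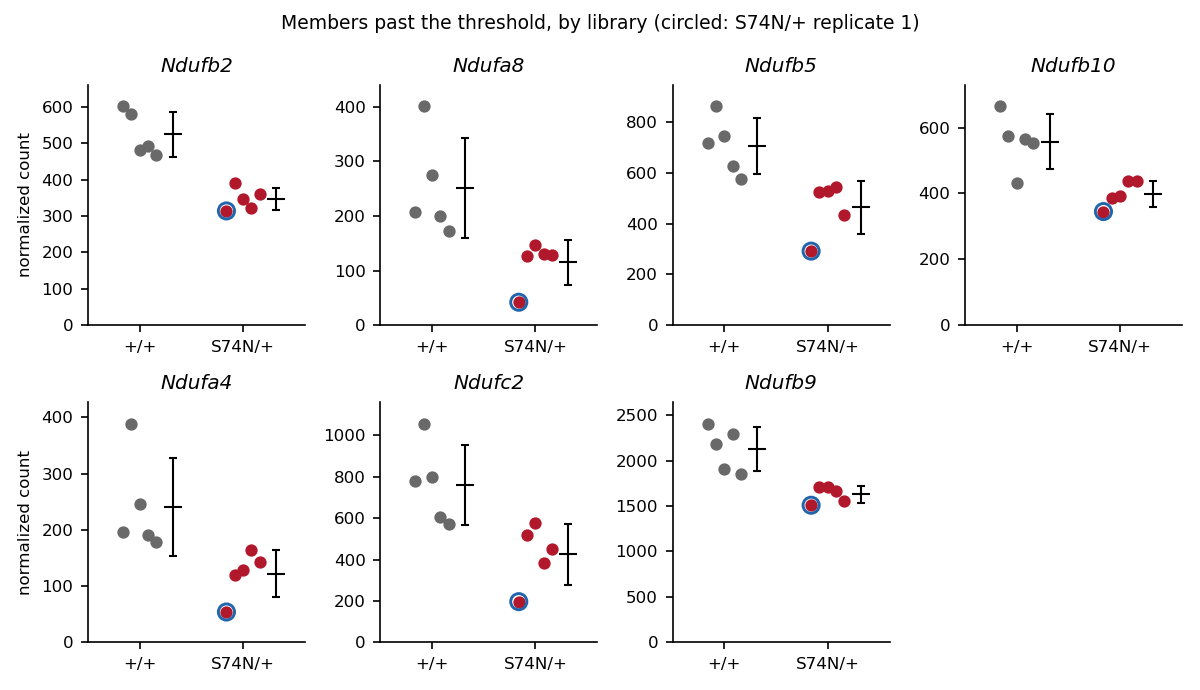
Normalized counts (y axis, from 0) of the 7 genes past the threshold in each library, with the mean and SD of each genotype (n = 5) beside the points. All 7 means are lower in S74N/+, and the circled library, S74N/+ replicate 1, is the lowest of the 10 in each panel.

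Ndufa4, first purified with complex I and now counted as a subunit of complex IV, had 196, 389, 246, 191 and 179 normalized counts in Rragc +/+ and 54.1, 120.2, 129, 165 and 143 in Rragc S74N/+ libraries. The groups did not overlap, with Rragc +/+ replicate 2 and Rragc S74N/+ replicate 1 as the extremes. On the log2 scale the difference was -0.997 ± 0.27 (SE; limma, adjusted p = 0.0385), and -0.73 (limma, adjusted p = 0.0221) without replicate 1. Ndufa4l2, its paralog that is induced in hypoxia, was the lowest of the 46 genes. It had 3.36, 17.7, 14.4, 13.1 and 10.9 normalized counts in Rragc +/+ and 2.80, 3.88, 5.999, 13.2 and 8.74 in Rragc S74N/+ libraries, and its difference of -0.71 ± 0.49 (SE) did not pass (limma, adjusted p = 0.383).

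None of the 8 assembly factors passed the threshold in limma, edgeR or DESeq2. In each of these tests 1 of the 8 (12.5%) was lower at an unadjusted p under 0.05, against 12.8% of all genes in limma, 11.7% in edgeR and 12.2% in DESeq2, and 0 were higher. In limma it was Ndufaf8, the partner of Ndufaf5, at -0.26 ± 0.11 (SE; adjusted p = 0.160). The median log2 fold change of the assembly factors was -0.15 (-0.16 without replicate 1), and 5 of the 8 lay below 0. When libraries were scaled to equal totals the median was -0.07 and 4 lay below 0. The difference between the assembly factors and the subunits was not tested. The levels differed too, since the median Rragc +/+ level was 105 normalized counts over the assembly factors and 667 over the subunits. The part of this in the results of the assembly factors was not tested.

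Ndufaf5, an enzyme that hydroxylates Ndufs7 during assembly, had the largest negative log2 fold change among the assembly factors, -0.52 ± 0.32 (SE; limma, adjusted p = 0.323). It had 29.1, 45.8, 32.6, 37.6 and 32.8 normalized counts in Rragc +/+ and 25.2, 29.1, 38.0, 9.17 and 32.1 in Rragc S74N/+ libraries, so that the groups overlapped and Rragc S74N/+ replicate 4 was the lowest. Ndufaf4, which acts with Ndufaf3 on the Q module, had the largest positive one, 0.10 ± 0.16 (SE; limma, adjusted p = 0.730). It had 223, 259, 177, 191 and 209.9 normalized counts in Rragc +/+ and 156, 235, 245, 225 and 291 in Rragc S74N/+ libraries. The groups overlapped, and without replicate 1, the lowest, the log2 fold change was 0.24 ± 0.13 (limma, adjusted p = 0.300). Ndufaf1, Ndufaf2 and Ndufaf7 lay between -0.07 and 0.01.

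Most subunits occur in equal numbers in the complex, while their transcripts were not equally abundant. The mean Rragc +/+ level ran from 115 normalized counts for Ndufb1 to 2337 for Ndufa10, with module medians of 1104 (N), 560.4 (Q), 1011 (proximal arm) and 554 (distal arm). Among the assembly factors it ran from 35.6 for Ndufaf5 to 312 for Ndufaf8. Summed over the 36 subunits, the normalized counts were 36331, 36867, 31556, 36041 and 33021 in Rragc +/+ and 27097, 28632, 29677, 29979.5 and 28145 in Rragc S74N/+ libraries. The groups did not overlap, and on this sum Rragc S74N/+ replicate 1 was the lowest by a small margin. The subunits took 0.702% ± 0.0345 (SD, n = 5) of all normalized counts in Rragc +/+ against 0.613% ± 0.0233 (SD, n = 5) in the Rragc S74N/+ group. Of the counts left after the mitochondrial genome was removed they took 1.12% ± 0.0581 and 0.953% ± 0.0384 (SD, n = 5 per group).

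Rragc S74N/+ replicate 1 did not move all subunits alike. In 7 of the 36 (Ndufa1, Ndufb3, Ndufa8, Ndufa7, Ndufc2, Ndufab1 and Ndufb8) its value was under 50% of the mean of the other Rragc S74N/+ libraries, against 6.74% of 7742 genes with a mean of at least 50. In 24 of the 36 its value was below that of every other Rragc S74N/+ library. In 8 (Ndufv1, Ndufv2, Ndufa2, Ndufa12, Ndufa5, Ndufa11, Ndufa13 and Ndufc1) its value was above that of every other Rragc S74N/+ library. The share of all genes was not counted for either, and its split of the subunits was not tested. The SD over the subunits of its deviations from the mean of the other libraries of its group was 0.683 on the log2 scale. In the other 9 libraries it was 0.201 to 0.330.

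**Figure D4:**
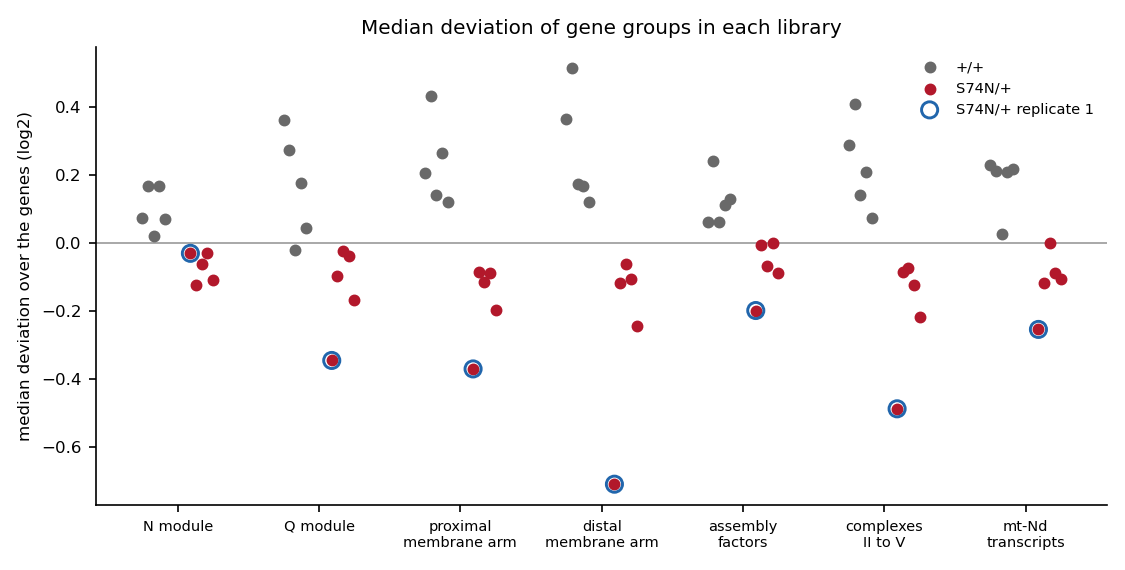
Median deviation from the mean of the 10 libraries (log2, y axis) over the genes of each group, 1 point per library. The S74N/+ points of the distal arm lie at -0.06 to -0.71 and the +/+ points at 0.12 to 0.52, and S74N/+ replicate 1 (circled) is lowest in each group but the N module.

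Other genes of the pathway were then set beside the members. Of 43 genes of complexes II to V, 12 were lower (27.9%), against 2.58% of all tested genes, and 0 higher, against 3.45%. Their median log2 fold change was -0.47. Without replicate 1, 19 were lower, against 3.2% of all genes, and the median was -0.35. The first of the 12 by p were Atp5g1, a c subunit of the ATP synthase ring (1911 ± 214 against 1302 ± 96.1 normalized counts, SD, n = 5 per group; -0.55 ± 0.11, SE; limma, adjusted p = 0.00896), and Cox6b1 of complex IV (1378 ± 227 against 879.6 ± 165; -0.65 ± 0.14; adjusted p = 0.0145). Cyc1, the cytochrome c1 of complex III, followed at -0.47, and Cox6c at -0.49 (limma, adjusted p = 0.0199 and 0.0221). The 12 also included Cox7c-ps1, a pseudogene row that shares sequence with Cox7c.

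Among 7 mt-Nd transcripts, which encode the core of the membrane arm, 0 passed in limma and 0 in edgeR. In limma 2 were lower at an unadjusted p under 0.05, against 12.8% of all genes. DESeq2 called 2 lower, against 4.29% of all genes. Their median log2 fold change was -0.23 (-0.26 without replicate 1). Their sum was 524340 to 604648 normalized counts in Rragc +/+ and 281248 to 489877 in Rragc S74N/+ libraries, with replicate 1 at 281248. Of 12 further assembly factors of complex I outside the Ndufaf name, 11 were tested and 0 passed in limma, edgeR or DESeq2. At an unadjusted p under 0.05, 2 were lower in each, against 12.8%, 11.7% and 12.2% of all genes. Their median was -0.27.

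Of 15 regulators of mitochondrial biogenesis, 2 were lower, against 2.58% of all tested genes, and 0 higher, against 3.45%, with a median of -0.17. Esrrb, a nuclear receptor of the ERR family, had 45.9, 53.1, 50.9, 69.9 and 36.8 normalized counts in Rragc +/+ and 13.99, 23.3, 43.0, 24.4 and 14.6 in Rragc S74N/+ libraries, with overlap through Rragc S74N/+ replicate 3 (-1.16 ± 0.29, SE; limma, adjusted p = 0.0285; 0.0309 without replicate 1). Ppargc1a, which encodes the coactivator PGC-1α of respiratory chain genes, had 320.0, 293, 336, 305 and 264 against 151, 190.0, 238, 238 and 255. Its groups did not overlap (-0.52 ± 0.15, SE; limma, adjusted p = 0.0472), and without replicate 1 it missed the threshold (-0.40; limma, adjusted p = 0.0543). Of 21 other genes of the mitochondrial membrane and matrix 2 were lower and 0 higher, against the same shares of all genes, with a median of -0.27. They were Slc25a4, the ADP/ATP carrier (-0.57 ± 0.13, SE; limma, adjusted p = 0.0168), and Tomm40, the import pore (-0.63 ± 0.18, SE; limma, adjusted p = 0.0453).

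Several markers of kidney cell types differed between the genotypes as well. Past the threshold, 2.58% of all tested genes were lower and 3.45% higher. All 6 markers of the distal convoluted tubule were lower, and their sum was 4994 to 6315 normalized counts in Rragc +/+ and 1609 to 2434 in Rragc S74N/+ libraries. Of 6 markers of the thick ascending limb 3 were lower (11227 to 15232 against 5170 to 11197, with 5170 in replicate 1), and 2 of the 6 lay above 0. Of 12 proximal tubule markers 1 was lower (49083 to 63189 against 48642 to 64316). Of 16 leukocyte markers 14 were tested and 4 were higher (887 to 1206 against 1361 to 1826), as were 3 of 7 fibroblast markers (809.5 to 1415 against 1314 to 2202) and 3 of 6 tested tubule injury markers (2169 to 2574 against 1789 to 3046). Below 0 lay 2 leukocyte, 1 fibroblast and 2 injury markers, 1 of the injury markers at an unadjusted p under 0.05 in limma. The mean sum of the injury markers was 2323 in Rragc +/+ and 2227 in Rragc S74N/+ libraries. No marker tested was at 0 in all libraries, which the filter on low values already ensured. The part of these differences in the values of the complex I genes was not tested.

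The sample titles carry numbers under 200 (3 libraries per genotype, with Rragc S74N/+ replicate 1 among them) or over 200 (2 per genotype), and nothing states what the ranges stand for. With the range as a block, 7 of the 36 subunits were lower, against 2.72% of all genes, the earlier ones and Ndufa6. The 7 genes past the threshold without the block, Ndufa4 among them, lay below 0 within both ranges. They were chosen for being lower over these same libraries, so their sign within the ranges is no separate check. Within the lower range alone 0 subunits passed in limma, and 20 were lower at an unadjusted p under 0.05, against 10.4% of all genes. Within the lower range the log2 fold change was -0.66 for Ndufb2, -1.61 for Ndufa8, -0.84 for Ndufb5, -1.48 for Ndufa4 and -0.39 for Ndufb9. Within the upper range, which does not hold replicate 1, the values for the same genes were -0.50, -0.52, -0.31, -0.27 and -0.36. The reads of 13 of the 46 genes could be shared with another gene, since their transcripts hold at least 100 bases at 95% identity or more with a transcript of another gene. Ndufb2 and Ndufb9 are among these, and their values are uncertain to that extent.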

How the data were processed

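Whole-kidney RNA of 10 aged mice was measured by 3′ mRNA sequencing (QuantSeq) from 300 ng of RNA with quality scores of 6.2 to 7. The authors checked reads with FastQC 0.11.7, aligned them to GRCm39 with TopHat2 2.0.10, Bowtie 1.0.0 and SAMtools 0.1.19, and counted sense-strand reads per gene with HTSeq 0.6.1. The deposited table holds signal values in the form of normalized counts, that is, read counts divided by the authors with 1 size factor per sample. Every column of per-sample values was mapped to a sample by its title.

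The members, the lists and the rule for named genes were chosen with earlier results of these data known. Genes with at least 5 normalized counts in at least 5 samples were kept (13236 of 13299). Log2 values with a pseudocount of 1, a scale that understates changes of genes with low values, were fitted with limma 3.58.1 in R 4.3.3, genotype as the only term and an eBayes trend (two-sided, Benjamini-Hochberg over all tested genes, threshold 0.05). Whole reads were recovered from the steps of the values in all 10 columns (100% whole within 0.001 of a read). The steps of 2 columns lay close to 1. These reads entered edgeR 4.0.16 and DESeq2 1.42.0 as alternatives, beside other pseudocounts, filters, scalings and variance models, a title-range block and leaving out each library. Quality weights, fits within a title range and leaving out both libraries that stood apart were added after the data were seen. Fits were tested on simulated data.

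Of the 47 members 1 is not reported here. Named were members past the threshold (7, filled up to 8 by p), the largest rise and fall among subunits and among assembly factors, nuclear core subunits, the highest and lowest level, and up to 4 called genes of each other mitochondrial list with Ppargc1a. Other subunits named for missing the threshold, and Ndufaf8, were chosen after their values were seen. Shared stretches were searched with blastn 2.17.0 in GENCODE M21 transcripts. Promoter motifs were chosen by hand, and the NRF1 core replaced a longer, degenerate NRF1 motif after the matches of the latter had been seen.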

Additional observations from a re-analysis of the deposited data

Results flagged for a closer look

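In the 60 groups of 5 values searched (named genes and summaries of the members, by genotype), 4 held a value far from the other 4, and chance flags about 1 in 20 groups, or 3. Ndufa8 had 42.0 normalized counts in Rragc S74N/+ replicate 1, below the 127 to 146 of the other 4 libraries of its group. Ndufa5 had 1286 in the same library, above the 649.9 to 819.9 of the others. Cox6b1 had 1778 in Rragc +/+ replicate 2, above the 1226 to 1333 of the others. The median deviation of the subunits from the mean of the 10 libraries was -0.44 (log2) in Rragc S74N/+ replicate 1, below the -0.16 to -0.06 of the other 4.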

How the results depend on the processing

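The count of 798 genes past the threshold was 391 without the variance trend, 1351 in DESeq2, 499 without Rragc S74N/+ replicate 1 and Rragc +/+ replicate 2, and 46 with title numbers under 200 only, and it lay between 311 and 902 when each library was left out in turn. The count of 6 subunits (2.58% of all genes) was 12 in DESeq2 (4.29%) and 10 with quality weights (3.18%). It was 3 with equal library totals, 1 without the variance trend, 3 without both libraries that stood apart and 2 with title numbers over 200 only. The shares of all genes that were lower are not given for these 4 settings, so their counts are not set against all genes. It was 0 with title numbers under 200 only, where 20 subunits were lower at an unadjusted p under 0.05 in limma (10.4% of all genes). The count of subunits lay between 1 and 10 when each library was left out. The fits on fewer libraries had fewer samples, and for the others the cause was not tested. The median of the subunits was below 0 in each of the 26 alternatives, from -0.46 to -0.25. That of the assembly factors was -0.0735 with equal library totals, -0.0522 with title numbers over 200 only, and -0.19 to -0.13 when each library was left out, and none of the 8 passed in any alternative. The sign of 9 members between -0.09 and 0.10 turned in at least 1 alternative, among them 3 of the named genes. Ndufa5 (0.04) was -0.15 without both libraries, -0.0812 with quality weights, -0.20 with title numbers over 200 only, and -0.11 to 0.14 when each library was left out. Ndufaf4 (0.10) was -0.0620 with title numbers under 200 only. Ndufv1 (0.00) was -0.00026 in edgeR, -0.0093 in DESeq2, -0.12 without both libraries, -0.0583 with quality weights, -0.22 with title numbers over 200 only, and -0.0680 to 0.0915 when each library was left out. Over the named members and alternatives, 366 values kept their direction and side of the threshold, 68 lost the call, 15 gained it and 17 turned. For named genes of the other lists, 151 kept both and 56 lost the call. No paired analysis was made, since the labels name no pairs of samples.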
